A study of Rattus norvegicus with 32 samples.

Results

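The genes described here are 10 genes of the vessel wall: the selectins Sele and Selp, the immunoglobulin-type adhesion molecules Vcam1, Icam1, Icam2 and Pecam1, and the junction genes Cdh5, Cldn5, Esam and Ocln. They were chosen by name, and every non-control probe named after one of them in either annotation version of the scanner files was taken, which gave 16 of the 45598 different probes on the array (10 of 18782 gene names). Of these 16 probes, 13 were kept in males and 13 in females after the filter on dim probes, and every one of the 10 genes had a probe that was well above background on all 32 arrays. Left ventricles came from male and female Wistar rats aged 9 to 12 weeks and were frozen 20 h after sham surgery, after CLP (cecal ligation and puncture, a surgical model of abdominal sepsis), or after CLP with an infusion of landiolol, a β1-selective blocker with a brief action, at 0.1 mg/kg/min from 1 h after CLP. The other groups were infused with saline. All rats had received buprenorphine, and all hearts were imaged in vivo and perfused ex vivo as Langendorff preparations before they were frozen, the sham hearts included. Each sex had 5 sham, 5 CLP and 6 CLP plus landiolol arrays, 1 per rat, on 1-colour Agilent arrays.

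Endothelial cells line the vessels and control both the entry of leukocytes and the leak of plasma into tissue. E-selectin (Sele) and P-selectin (Selp) let leukocytes roll along the vessel wall, ICAM-1 and VCAM-1 then hold them through leukocyte integrins, and PECAM-1 takes part in their passage between endothelial cells. Sele, Vcam1 and Icam1 are classical targets of TNF-α and NF-κB in activated endothelium, whereas Icam2, Pecam1, VE-cadherin (Cdh5), claudin-5 (Cldn5) and ESAM are made by resting endothelium, where the last 3 of these seal or stabilise the junctions, and occludin (Ocln) is a tight junction protein.

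Levels below are log2 intensities after quantile normalisation within a sex, given by the brightest kept probe of each gene. They cannot be compared between probes, and males and females lay on different slides, so their levels are not compared either. Since whole ventricle was measured, fewer cells of a type and less RNA per cell cannot be told apart. The 60-base probes lie, on rat build rn4 as the files give it, at chr13:79822442-79822501 for Sele, chr13:79922082-79922141 for Selp, chr2:212277695-212277754 for Vcam1, chr8:20051730-20051789 for Icam1 and chr10:95775052-95775111 for Icam2. Those of Pecam1, Cdh5, Cldn5, Esam and Ocln lie at chr10:96056219-96056278, chr19:777961-778020, chr11_random:1224740-1224799, chr8:38783957-38784016 and chr2:31317108-31317167. Sele and Selp both lie on chromosome 13. Exon, intron and UTR are not annotated for the probes in the files.

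The probes of Selp differed in whether they were above background. Probe A_44_P1159999 was well above background on all 16 male and all 16 female arrays, and probe A_64_P166514 carries the same 60 bases. Probe A_43_P11721 was placed by the files over 56 of the same positions but differs from them at 8, and it was well above background on 1 male and 0 female arrays. Neither sequence was checked against a genome of build rn4 here. The stretch of 30 bases that holds 6 of these 8 differences, chr13:79922082-79922111 on the plus strand of rn4, is shown with the differing bases in capitals.
A_44_P1159999: ggAaaggtcctcTtttcgTtattttgTTcT
A_43_P11721: ggGaaggtcctcCtttcgGtattttgGAcC
The male files name the bright pair only by a transcript, ENSRNOT00000003759, and the female files name it Selp. Ocln also had 2 dim probes, one well above background on 0 and the other on 2 male and 3 female arrays, and these were not kept.

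RefSeq's table of promoters (build GRCr8) held 5 of the 10 genes, Sele, Vcam1, Icam1, Cldn5 and Ocln. The 250 bases before the start of transcription are shown for Vcam1, Icam1 and Sele, because these 3 genes varied together from heart to heart, as given further on. Capitals mark exact matches to the NF-κB consensus motif GGGRNNYYCC (10 bases) and to TATAAA, each searched on both strands. In the motif R is A or G, Y is C or T, and N is any base.
Vcam1, chr2:206742784-206743033, minus strand: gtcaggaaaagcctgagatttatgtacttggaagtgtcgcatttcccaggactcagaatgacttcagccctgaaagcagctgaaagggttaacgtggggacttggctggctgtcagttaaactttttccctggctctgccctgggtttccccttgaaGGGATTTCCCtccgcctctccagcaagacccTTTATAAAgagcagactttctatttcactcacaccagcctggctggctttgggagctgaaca
Icam1, chr8:27829595-27829844, plus strand: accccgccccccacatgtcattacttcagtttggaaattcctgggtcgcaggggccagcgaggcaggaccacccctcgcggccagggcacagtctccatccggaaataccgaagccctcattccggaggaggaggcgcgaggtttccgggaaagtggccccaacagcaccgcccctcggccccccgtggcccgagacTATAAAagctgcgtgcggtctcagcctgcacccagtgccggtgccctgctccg
Sele, chr13:78936264-78936513, plus strand: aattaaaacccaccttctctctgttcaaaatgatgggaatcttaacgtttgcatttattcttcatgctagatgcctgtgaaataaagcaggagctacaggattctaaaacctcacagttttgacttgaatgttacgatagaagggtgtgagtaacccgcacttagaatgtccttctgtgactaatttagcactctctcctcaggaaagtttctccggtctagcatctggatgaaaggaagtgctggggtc
An exact match to the NF-κB motif was found once in Vcam1, 93 bases before the start, once in Ocln, 192 bases before it, and in 0 of the other 3 windows. Sites that depart from this pattern were not searched for, so a window may hold NF-κB sites that are not marked. Over all 33469 promoters of the table, 6.33% held that motif in this window and 12.9% held TATAAA, which was found in Vcam1 and Icam1. These are matches of letters, and no binding was measured.

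After CLP in males, 0 of the 10 genes passed the FDR of 1% (limma with Benjamini-Hochberg adjustment over all 25866 probes kept), where 7.81% of all probes did. SAM, the test used in the study, called 10.9% of probes and 0 of the 10 genes. At an unadjusted p of 0.05, 2 genes passed, Pecam1 and Esam, and 28.8% of all probes did. The log2 fold change was above 0 for 4 of the 10 genes, with a median of -0.10 against 0.01 over all probes. In females 0 of the 10 genes passed as well, where 3.63% of the 25395 probes were called by limma and 4.91% by SAM, and 2 genes passed at an unadjusted p of 0.05, Sele and Vcam1, against 23.1% of all probes. Here 2 of the 10 log2 fold changes were above 0, and their median was -0.36 against -0.01 over all probes.

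Landiolol was followed in CLP plus landiolol vs CLP at an FDR of 5%. In males 1.56% of probes passed with limma and 3.95% with SAM, and in females 0.0945% and 0.225%, and in both sexes 0 of the 10 genes passed with either tool. At an unadjusted p of 0.05 Cdh5 passed in males and 0 genes passed in females, where 14.8% of male and 9.34% of female probes did. The median log2 fold change of the 10 genes was 0.15 in males and 0.10 in females. In CLP plus landiolol vs sham, at an FDR of 1% chosen here, limma called 4.15% of male and 5.25% of female probes and again 0 of the 10 genes. SAM called 7.37% of male probes and 0 genes, and 11.8% of female probes and 1 gene, Vcam1. At an unadjusted p of 0.05, 1 gene passed in males (Pecam1) and 5 in females (Sele, Selp, Vcam1, Icam1 and Pecam1), against 24.2% of male and 26.7% of female probes. Each group enters 2 of the 3 comparisons of a sex, so these share arrays and are not independent of each other. Without overlap between the groups were 0 of the 10 genes in the 3 male comparisons, against 12.3%, 2.27% and 7.79% of all probes for CLP vs sham, CLP plus landiolol vs CLP and CLP plus landiolol vs sham, and 0 in female CLP plus landiolol vs CLP, against 1.15%.

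**Figure D1:**
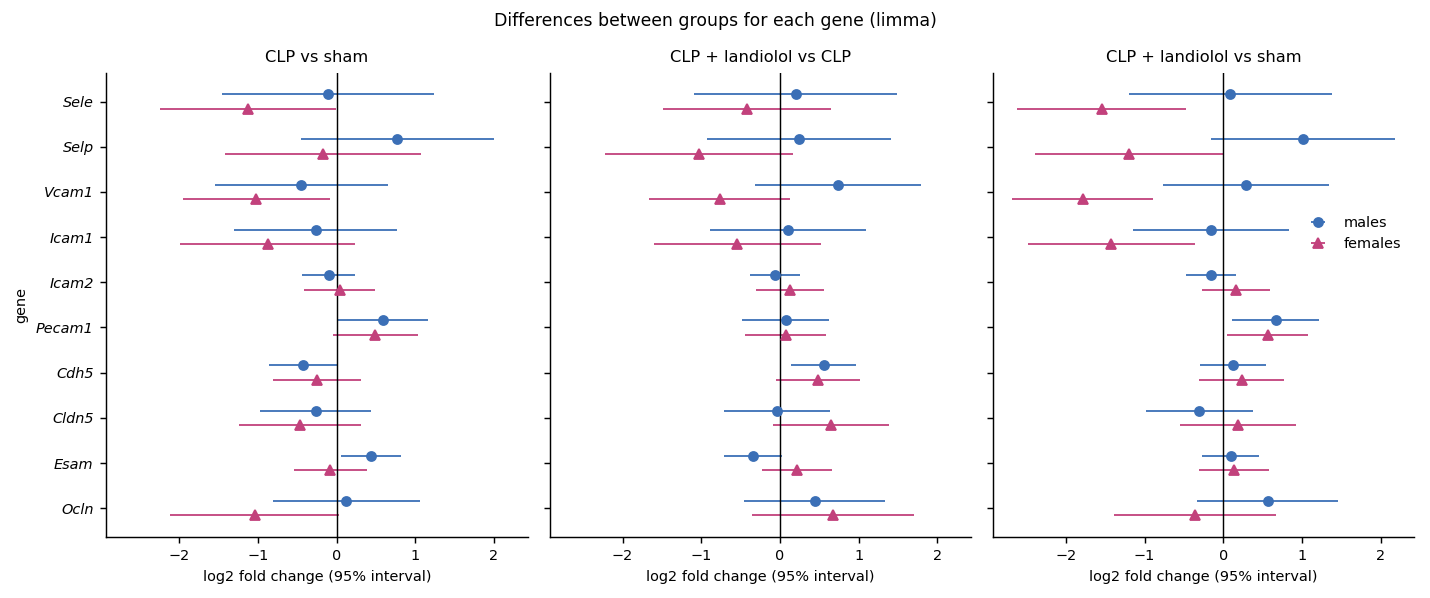
Log2 fold change (x axis) of each of the 10 genes (y axis) in the 3 comparisons, for males (circles) and females (triangles), with bars for the 95% interval of the limma fit. None passed the FDR. Female Vcam1 lies farthest to the left in CLP plus landiolol vs sham, at -1.79, whereas the intervals of Icam2 stay between -0.48 and 0.59.

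Sele, the selectin of activated endothelium, had levels of 12.87, 11.96, 9.67, 10.74 and 10.95 in the 5 male sham arrays and of 12.23, 10.94, 9.36, 12.26 and 10.84 in the male CLP arrays. The 6 male CLP plus landiolol arrays ran from 9.99 over a median of 11.56 to 12.18. The 3 male groups overlapped over most of their range, and the means, 11.24 ± 1.22 (SD, n = 5), 11.13 ± 1.20 (n = 5) and 11.33 ± 0.87 (n = 6), differed by less than any of these SDs. CLP vs sham was -0.11 (standard error 0.63, 95% interval -1.46 to 1.24, adjusted p = 0.942, limma). The female sham arrays had 12.02, 13.81, 11.69, 12.31 and 14.40, while CLP gave 12.36, 10.96, 11.98, 11.42 and 11.86, and landiolol-treated hearts ran from 10.11 over 11.48 to 12.41. The order of the means was sham (12.84 ± 1.19), CLP (11.72 ± 0.54) and CLP plus landiolol (11.30 ± 0.90), and neighbours in that order overlapped. The CLP difference was -1.13 (standard error 0.53, interval -2.25 to -0.01, adjusted p = 0.213) and CLP plus landiolol vs sham was -1.55 (standard error 0.51, adjusted p = 0.0558). Over 12 other limma settings the adjusted p of the latter ran from 0.0324 to 0.683, and it passed in 0 of them. The second Sele probe gave -1.35 and -1.63 for the same differences (adjusted p = 0.169 and 0.0665). Replicate 5 of the female sham group was the highest of all, and without it the CLP difference was -0.74 (adjusted p = 0.431, the highest of its alternatives, which began at 0.126).

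Selp, stored in endothelial cells and platelets and released to the surface on activation, had male sham levels of 13.58, 13.39, 10.55, 11.44 and 11.59 and male CLP levels of 13.32, 12.47, 12.15, 13.70 and 12.76. The male CLP plus landiolol arrays ran from 11.95 over 13.18 to 14.47. The first 2 sham arrays, both on slide 1, lay among the CLP arrays and the other 3, on slide 2, lay below all of them. From low to high the order of the means was sham (12.11 ± 1.32), CLP (12.88 ± 0.63) and CLP plus landiolol (13.12 ± 0.92), and the neighbouring differences were 0.77 (standard error 0.58, adjusted p = 0.428) and 0.24 (standard error 0.55, adjusted p = 0.855). Female sham arrays had 13.24, 13.26, 12.39, 12.52 and 14.50 and female CLP arrays 13.19, 12.59, 13.62, 13.50 and 12.12. In females the order was the opposite, with 13.18 ± 0.84 in the sham, 13.01 ± 0.63 in the CLP and 11.98 ± 1.35 in the CLP plus landiolol group. CLP plus landiolol vs CLP was -1.03 (standard error 0.56, adjusted p = 0.612) and CLP plus landiolol vs sham was -1.20 (standard error 0.56, adjusted p = 0.184). Over 12 other limma settings the adjusted p of the latter ran from 0.158 to 0.843. The female CLP plus landiolol arrays were the most spread of the female groups, from 10.13 over 12.28 to 13.72. The probe with the same bases gave CLP differences of 0.77 in males and -0.16 in females.

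Vcam1 encodes the endothelial ligand of the integrin α4β1 of monocytes and lymphocytes, and it came nearest to a call. In females the 5 sham arrays had 14.98, 15.00, 14.50, 14.60 and 15.73, CLP arrays 14.43, 13.18, 14.08, 14.01 and 14.00, and landiolol-treated ones ran from 11.79 over 13.52 to 14.20. Every sham array was thus above every array of the other 2 female groups. Vcam1 was the 1 gene of the 10 without overlap in any comparison, against 8.32% of all probes in female CLP vs sham and 9.74% in female CLP plus landiolol vs sham. The means were 14.96 ± 0.48, 13.94 ± 0.46 and 13.17 ± 1.07. The CLP difference was -1.02 (standard error 0.44, interval -1.96 to -0.09, adjusted p = 0.172, limma), and CLP plus landiolol vs sham was -1.79 (standard error 0.42, interval -2.68 to -0.89), a level 3.45-fold lower with an adjusted p of 0.0114. This lies outside the FDR of 1% set here for that comparison and inside one of 5%, for which the study states no level. The latter was -2.0 within slide 3 and -1.52 within slide 4. It passed with SAM and in 4 of 12 other limma settings, over which its adjusted p ran from 0.00786 to 0.443. It also passed without replicate 2 (adjusted p = 0.00916) or replicate 5 (adjusted p = 0.00771) of the female CLP plus landiolol group. All female sham arrays lay in row 1 of their slides and all CLP plus landiolol arrays in row 2, and with this row added to the fit the difference was -1.90 with an adjusted p of 0.443. In the males the sham arrays had 15.07, 14.73, 12.63, 12.90 and 13.56, CLP arrays 14.14, 13.64, 11.69, 13.57 and 13.62, and landiolol-treated ones ran from 13.30 over 14.08 to 14.89. Their order was CLP (13.33 ± 0.94), sham (13.78 ± 1.08) and CLP plus landiolol (14.07 ± 0.62), and each overlapped the other 2. The CLP difference was -0.45 (standard error 0.52, adjusted p = 0.64) and CLP plus landiolol vs CLP was 0.74 (standard error 0.49, adjusted p = 0.509). The landiolol difference of Vcam1 was -0.77 in females (standard error 0.42, adjusted p = 0.617), and the difference between the sexes, 1.51 (standard error 0.68), had an unadjusted p of 0.0347 and an adjusted p of 0.968.

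Icam1, the ligand of the β2 integrins of neutrophils and monocytes, had female sham levels of 14.11, 16.04, 15.35, 15.15 and 16.53 and female CLP levels of 15.24, 13.75, 14.67, 14.46 and 14.67. The female CLP plus landiolol arrays ran from 12.52 over 14.37 to 15.05. All 3 groups overlapped, and the means kept the order seen for Sele and Vcam1, with 15.44 ± 0.92, 14.56 ± 0.54 and 14.01 ± 1.10. Their CLP difference was -0.88 (standard error 0.52, adjusted p = 0.347) and CLP plus landiolol vs sham was -1.42 (standard error 0.50, adjusted p = 0.0753). Over 12 other limma settings the adjusted p of the latter ran from 0.0465 to 0.677, and it passed in 0 of them. The male means were 14.56 ± 0.95, 14.29 ± 0.68 and 14.40 ± 0.85 in the sham, CLP and CLP plus landiolol groups, and the male differences had intervals from -1.30 to 0.77 for CLP vs sham and from -0.89 to 1.10 for CLP plus landiolol vs CLP.

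**Figure D2:**
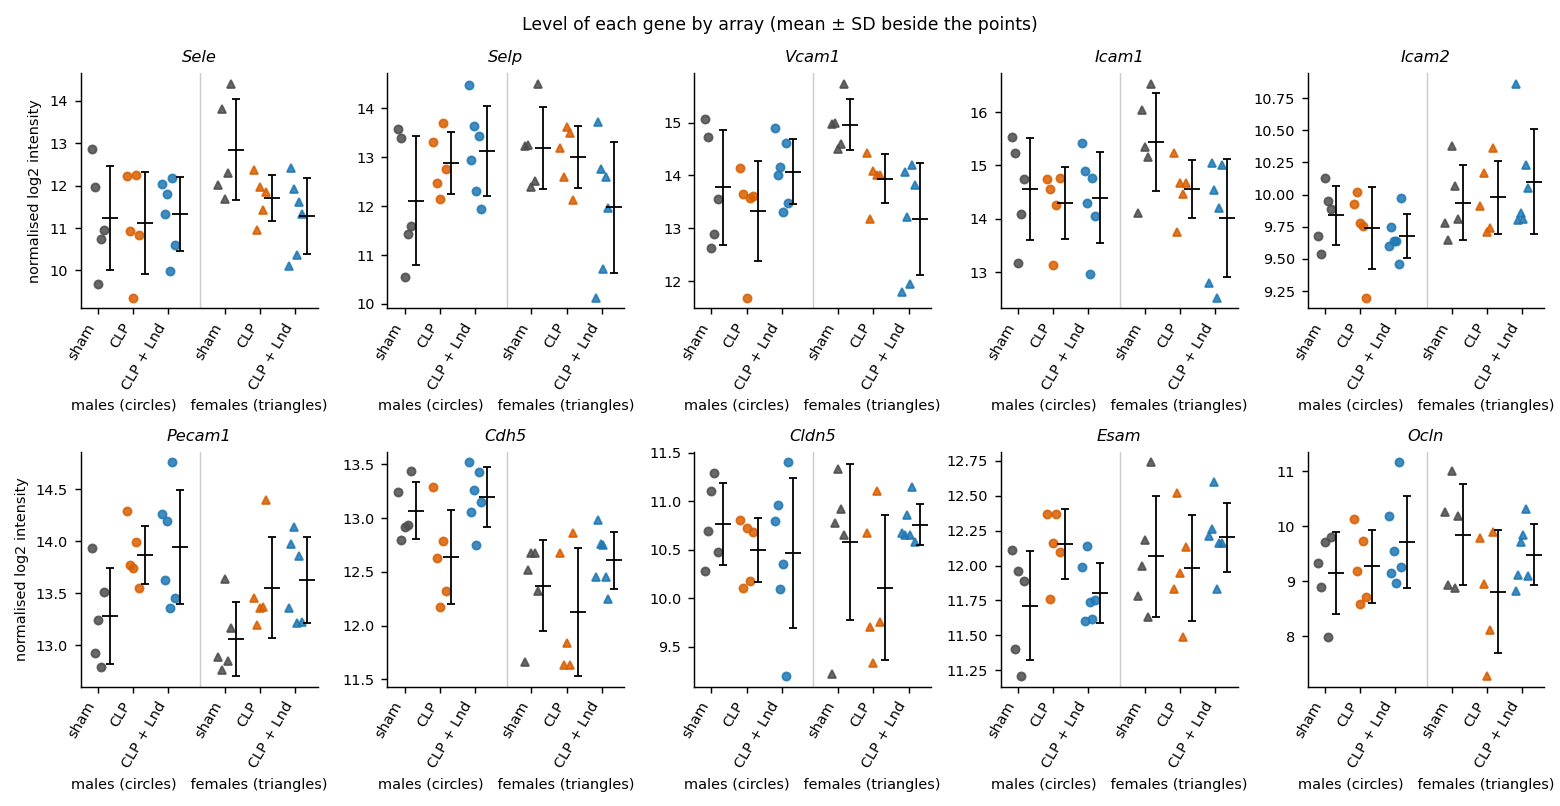
Normalised log2 intensity (y axis) of each gene on each of the 32 arrays by group (x axis), with males as circles and females as triangles and the mean and SD of the group beside the points. Each panel has its own scale. Vcam1 of the female sham group lies above both other female groups, from 14.50 upwards, and in every other panel each group overlaps its neighbours.

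Icam2 and Pecam1 stand for the adhesion molecules that resting endothelium carries. Icam2 had the smallest SD within groups of the 10 genes in both sexes. Its male means were 9.84 ± 0.23, 9.74 ± 0.32 and 9.68 ± 0.17 in the sham, CLP and CLP plus landiolol groups and its female means 9.94 ± 0.29, 9.98 ± 0.28 and 10.10 ± 0.41. CLP vs sham was -0.10 in males (interval -0.43 to 0.23, adjusted p = 0.746) and 0.04 in females (interval -0.41 to 0.49, adjusted p = 0.944). Pecam1 was higher in the CLP group in both sexes, without passing. Male sham arrays had 13.93, 12.92, 13.24, 12.79 and 13.51 and male CLP arrays 14.29, 13.77, 13.74, 13.99 and 13.55. The male CLP plus landiolol arrays ran from 13.36 over 13.91 to 14.76. Of the CLP arrays, 3 lay below the highest sham array. The CLP difference was 0.59 (standard error 0.27, interval 0.01 to 1.17, adjusted p = 0.163) and CLP plus landiolol vs sham was 0.67 (standard error 0.26, adjusted p = 0.123). Female sham arrays had 12.89, 12.76, 13.64, 12.85 and 13.17, CLP arrays 13.45, 13.19, 13.36, 13.37 and 14.40, and landiolol-treated ones ran from 13.21 over 13.61 to 14.14. Here the CLP difference was 0.49 (standard error 0.25, adjusted p = 0.265) and CLP plus landiolol vs sham was 0.57 (standard error 0.24, adjusted p = 0.145). With the slide's row added to the fit the latter was 0.02 (adjusted p = 0.994).

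Cdh5 encodes the cadherin of the adherens junction between endothelial cells. Male sham arrays had 13.24, 12.80, 12.92, 12.94 and 13.44, CLP arrays 13.29, 12.63, 12.17, 12.79 and 12.32, and landiolol-treated ones ran from 12.75 over 13.20 to 13.52. Sham and CLP plus landiolol arrays covered nearly the same range, and 4 of the 5 CLP arrays lay below every sham array. The order of the male means was CLP (12.64 ± 0.44), sham (13.07 ± 0.27) and CLP plus landiolol (13.19 ± 0.28). The CLP difference was -0.43 (standard error 0.20, adjusted p = 0.18) and CLP plus landiolol vs CLP was 0.56 (standard error 0.20, interval 0.14 to 0.97, adjusted p = 0.188). Within the male slides the landiolol difference was 0.58 and 0.56. Without replicate 1 of the male CLP group, the highest Cdh5 array of that group, it was 0.72 and passed (adjusted p = 0.0357, where the alternatives ran up to 0.439). In females the CLP arrays had 12.68, 11.63, 11.84, 11.63 and 12.86 and the means were 12.37 ± 0.42, 12.13 ± 0.60 and 12.61 ± 0.27, with a landiolol difference of 0.48 (standard error 0.25, adjusted p = 0.593). The second Cdh5 probe gave smaller landiolol differences, 0.23 in males (adjusted p = 0.488) and 0.07 in females (adjusted p = 0.952). The male files name the first probe, A_43_P14288, only CF110636, and the female files name it Cdh5. The second probe, A_64_P145597, is named Cdh5 in the files of both sexes.

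Cldn5, Esam and Ocln are the remaining junction genes. Cldn5 had male means of 10.77 ± 0.42 in the sham and 10.46 ± 0.77 in the CLP plus landiolol group, with the 5 CLP arrays between 10.11 and 10.81. Its female means were 10.58 ± 0.80, 10.11 ± 0.74 and 10.76 ± 0.21 in the sham, CLP and CLP plus landiolol groups. Its largest difference was 0.65 for landiolol in females (standard error 0.35, adjusted p = 0.606). Esam went from 11.72 ± 0.39 in the male sham group to 12.15 ± 0.25 in the male CLP group and 11.81 ± 0.21 in the male CLP plus landiolol group. Its male CLP difference of 0.44 (standard error 0.18, interval 0.05 to 0.82) had an unadjusted p of 0.0285 and an adjusted p of 0.118, and in females it was -0.08 (adjusted p = 0.884). Ocln was 9.14 ± 0.74, 9.27 ± 0.66 and 9.71 ± 0.83 in the male groups and 9.84 ± 0.92, 8.81 ± 1.11 and 9.48 ± 0.56 in the female groups. Its female CLP difference was -1.04 (standard error 0.51, adjusted p = 0.235), with -1.94 within slide 3 and 0.09 within slide 4.

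Averaged over the sexes, on the 32 arrays normalised together, 17.3% of 26492 probes passed an FDR of 1% for CLP vs sham and 4.66% passed 5% for CLP plus landiolol vs CLP, and 0 of the 10 genes passed either. At an unadjusted p of 0.05, which 36.5% of all probes passed for CLP and 17.8% for landiolol, 2 genes passed for CLP, Pecam1 with 0.54 (standard error 0.19, adjusted p = 0.0335) and Vcam1 with -0.73 (standard error 0.36, adjusted p = 0.134). For landiolol it was 1 gene, Cdh5 with 0.52 (standard error 0.16, adjusted p = 0.0655), while its second probe gave 0.15 (standard error 0.12, adjusted p = 0.542). Only the second probe is named Cdh5 in the files of both sexes. The first Cdh5 probe passed without any 1 of 5 arrays, namely replicate 1 of the male CLP group, replicate 4 of the male CLP plus landiolol group, replicate 1 of the female sham group, or replicate 1 or 5 of the female CLP group. The differences of the CLP effect and of the landiolol effect between males and females passed an FDR of 5% for 0% of all probes and for 0 of the 10 genes. At an unadjusted p of 0.05 it was 0 genes for CLP, against 3.76% of all probes, and 1 for landiolol, Vcam1, against 4.93%.

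The 10 genes differed widely in how much they scattered within a group. The pooled SD within the groups was 1.09 for Sele, 0.99 for Selp, 0.89 for Vcam1 and 0.84 for Icam1 in males, where the median over all probes was 0.33 and between 95.7% and 98.9% of probes had a lower SD. In females these 4 genes had SDs of 0.91, 1.02, 0.76 and 0.91 against a median of 0.37, and 91.8% to 97.4% of probes were lower. Ocln was nearly as spread, with 0.75 and 0.87. Icam2 (0.24 and 0.34), Esam (0.29 and 0.35), Cdh5 (0.33 and 0.44) and Pecam1 (0.45 and 0.42) lay between 29.7% and 70.2% of probes, and Cldn5 (0.56 and 0.62) above 82.8% and 84.3%. The standard errors of Sele, Selp, Vcam1 and Icam1 were correspondingly wide, between 0.42 and 0.63 in the comparisons within a sex.

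Within their groups, Sele, Selp, Vcam1 and Icam1 moved together from array to array. After subtraction of each group's mean, the 6 pairs among them had Pearson's r between 0.75 (Selp and Icam1) and 0.86 (Sele and Vcam1) over 32 arrays, and Spearman's rho between 0.73 and 0.85. Of 45 pairs of genes computed, these 6 had the smallest p that 100000 permutations can give (two-sided, adjusted p = 7.5e-05 by Benjamini-Hochberg). Next, the 2 arrays farthest from the median of 1 gene of each pair were left out. This was the gene that comes first in the order Sele, Selp, Vcam1, Icam1, and arrays extreme only for the other gene were kept. Without these arrays r was between 0.70 and 0.84. Within a sex r was between 0.71 and 0.92, and within single slides of 8 arrays between 0.68 and 0.97. Among the other 39 pairs r ran from -0.61 to 0.69, and 11 had an adjusted p under 0.05. The permutations moved deviations freely over the 32 arrays, across groups, sexes and slides. They do not separate variation that whole arrays share from variation of these genes. No share over other pairs of genes on the array was computed beside these results. Pecam1 went with Ocln (r = 0.69, rho = 0.67, permutation p = 2e-05, adjusted p = 0.00013) and with Cdh5 (r = 0.64, rho = 0.63, permutation p = 0.00016, adjusted p = 9e-04). Without the 2 arrays farthest from the median of Pecam1 these were 0.60 and 0.58. In males and females they were 0.84 and 0.56 for Ocln and 0.74 and 0.57 for Cdh5. Icam2 ran against Selp (r = -0.61, rho = -0.60, permutation p = 0.00023, adjusted p = 0.0011, -0.53 in males and -0.68 in females), and r was -0.49 without the 2 arrays farthest from the median of Selp. The brightness of an array, taken as the number of probes well above background, had r of -0.69 with Pecam1, -0.56 with Ocln and -0.46 with Cdh5, and between -0.33 and -0.23 with Sele, Selp, Vcam1 and Icam1, in each case over the 32 arrays as a description. The part of brightness in these correlations was not tested. By the same measure Cx3cl1 had r of 0.76 to 0.91 with these 4 genes, Irf1 of 0.66 to 0.89 and Nfkbia of 0.48 to 0.71. The other genes compared in this way, among them Cd68, S100a8 and Tek, had r between -0.39 and 0.44 with the 4 genes.

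**Figure D3:**
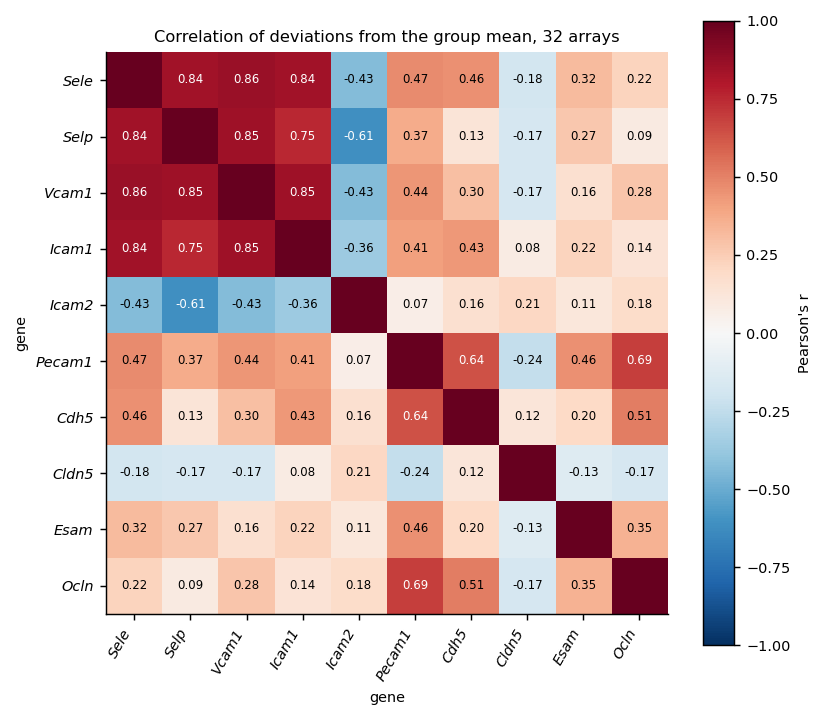
Pearson's r between each pair of the 10 genes (both axes) over 32 arrays after subtraction of the group means, in colour and as numbers. Sele, Selp, Vcam1 and Icam1 form a block with r of 0.75 or more, Icam2 is negative with all 4 of them, and Cldn5 has r between -0.24 and 0.21 with every other gene.

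**Figure D4:**
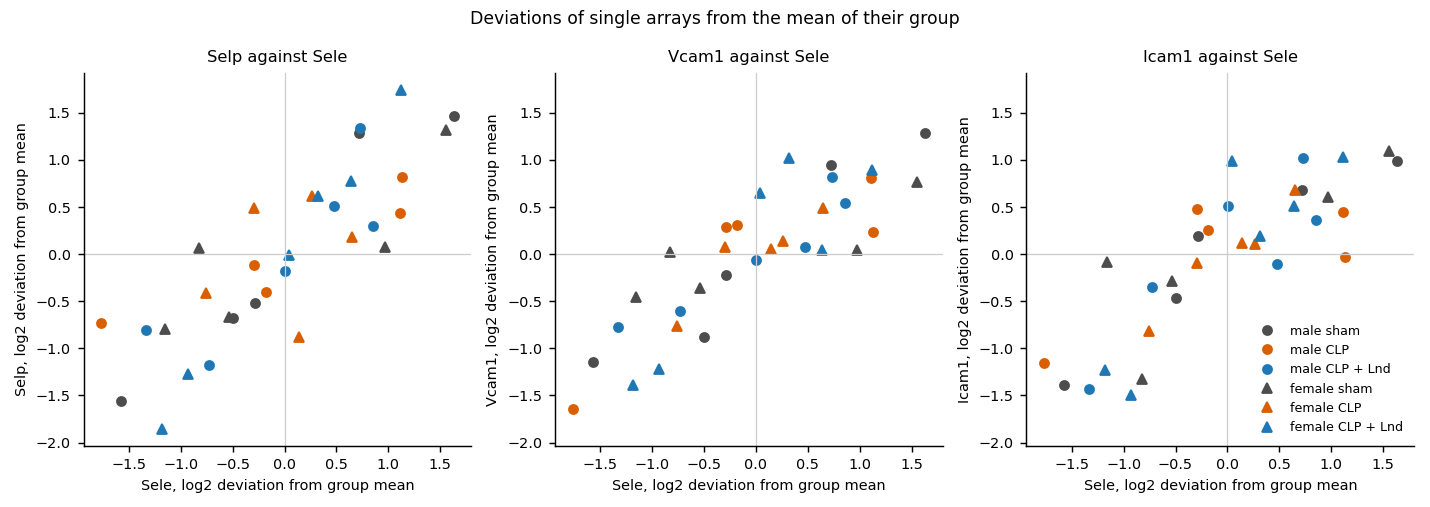
Deviation from the group mean (log2) of Selp, Vcam1 and Icam1 (y axes) against that of Sele (x axis), 1 point per array, with the colour giving the treatment and the symbol the sex. Arrays of all 6 groups spread along the same diagonal, with r of 0.84, 0.86 and 0.84.

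In males Sele, Selp, Vcam1 and Icam1 gave opposite differences on the 2 slides. CLP vs sham was -1.57 on slide 1 (3 CLP and 2 sham arrays) and 1.09 on slide 2 (2 CLP and 3 sham arrays) for Sele, -0.84 and 2.04 for Selp, -1.74 and 0.56 for Vcam1, and -1.25 and 0.52 for Icam1. The signs also differed for Icam2 (0.30 and -0.51) and Cldn5 (0.06 and -0.52). Pecam1, Cdh5, Esam and Ocln went the same way on both male slides. In females Sele, Vcam1 and Icam1 were lower in the CLP group on both slides, with -1.51 and -0.99 for Sele, -1.48 and -0.63 for Vcam1, and -1.23 and -0.73 for Icam1. The values of Pecam1 (0.05 and 0.93) were above 0 and those of Cdh5 (-0.60 and -0.14) below 0 on both. Selp (-0.33 and 0.09), Icam2 (-0.03 and 0.13), Esam (-0.23 and 0.16), Cldn5 (0.01 and -0.92) and Ocln differed in sign between the female slides. A difference between slides was not tested. The sample titles carry a code for each rat that can be read as a date, although what it marks is not stated in the sources used here. Read so, 7 of the 8 rats on male slide 1 came after all 8 rats on slide 2, the exception being replicate 3 of the CLP group, so that slide and time can hardly be told apart in males. The female slides were mixed in this order. With the slide as a block, or with the order of these codes as a linear term, a setting added after the data were seen, 0 of the 10 genes passed in any comparison within a sex. With the latter the male CLP difference was -0.05 for Sele, 0.84 for Selp, -0.39 for Vcam1 and -0.22 for Icam1, and the female one was -0.90, 0.03, -0.89 and -0.55 in the same order.

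**Figure D5:**
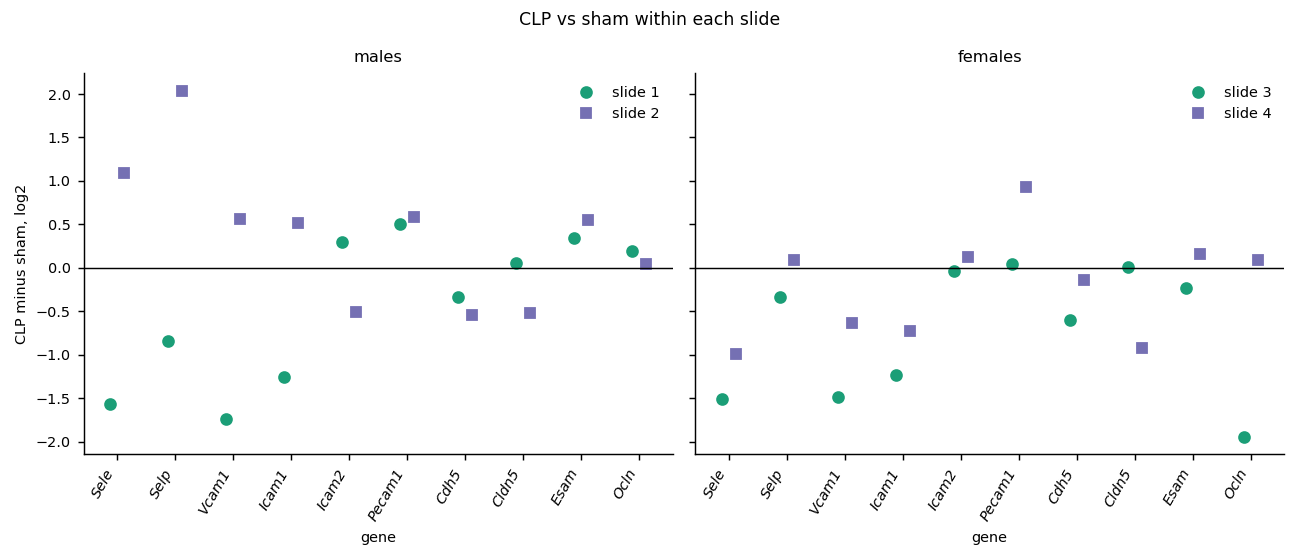
CLP minus sham (log2, y axis) of each gene (x axis) within each of the 4 slides, 2 per sex, each value from 2 or 3 arrays per group. Sele, Selp, Vcam1 and Icam1 lie below 0 on male slide 1 and above 0 on male slide 2, and Sele, Vcam1 and Icam1 lie below 0 on both female slides.

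The genes on the arrays whose levels were most like those of Sele, Selp, Vcam1 and Icam1 were partly each other. Over 32 arrays after subtraction of the mean of each sex, among 12967 genes, Sele was most like Vcam1 (r = 0.87) and Bcl3 (0.87), an atypical member of the IκB family. Selp was most like Sele (0.80) and Cxcl16 (0.79), a membrane-bound chemokine, and Vcam1 most like Sele and Icam1 (both 0.87). Icam1 was nearest to Arl5c (0.94) and Tgif2 (0.92). The junction genes had other neighbours, Sgsm1 (0.92) and Nfic (0.90) for Cdh5, Nr4a1 (0.81) and Tnfsf9 (0.75) for Cldn5, Tspan7 (0.69) and Tssk3 (0.67) for Esam, and Rbp2 and Wdr86 (both 0.95) for Ocln. Pecam1 was nearest to Map3k3 (0.95) and Otud5 (0.93), and Icam2 to Trib2 (0.74) and Sh3bgrl3 (0.61). These are descriptions of likeness, given without a test.

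Other genes of the same steps were counted from lists of names, by the same calls. Of all probes these called 7.81% in males and 3.63% in females when CLP was set against sham, 1.56% and 0.0945% when CLP plus landiolol was set against CLP, and 4.15% and 5.25% when it was set against sham. Of the leukocyte receptors and ligands that meet these adhesion molecules, 2 of 11 kept in males were higher in the CLP group and 0 lower, Itgam (1.27, adjusted p = 0.000129) and Itgb2 (1.31, adjusted p = 0.000129), which together form the integrin Mac-1 that binds ICAM-1. In females 0 of 9 passed in CLP vs sham, where Itgb2 had 0.99 (adjusted p = 0.0107) and Itgam 1.49 (adjusted p = 0.091). In female CLP plus landiolol vs sham 1 of 9 was higher, Itgb2 with 1.19 (adjusted p = 0.00203). In males 3 of 11 were higher in CLP plus landiolol vs sham. These were Itgb2 (1.63, adjusted p = 2.01e-05), Itgam (1.49, adjusted p = 3.62e-05) and Itgal (1.65, adjusted p = 0.00977). Itgal was well above background on only 11 male arrays. Of 18 other junction genes, 1 was higher after CLP in males and 1 in females, in both Jam2, a junctional adhesion molecule, with 0.98 (adjusted p = 0.000455) and 0.69 (adjusted p = 0.00609). In female CLP plus landiolol vs sham 4 of the 18 were higher, Jam2, F11r, Afdn and Cdh2, with 0.70 to 0.93. In that female comparison the groups lay in different rows of the slides, as given for Vcam1 above. The calls of the lists there, that of Itgb2 included, were not examined with the row in the fit. Among 10 genes listed as other adhesion molecules, Cd47 (1.10, adjusted p = 0.00197) was higher and Mcam (-0.93, adjusted p = 0.00534) lower in the male CLP group. Their female values, 0.83 for Cd47 (adjusted p = 0.0606) and -0.47 for Mcam (adjusted p = 0.313), did not pass. In females 1 of the 10 was lower, the membrane-bound chemokine Cx3cl1 (-1.96, adjusted p = 0.00162), which had -0.77 in males (adjusted p = 0.36). Of 19 genes of the shedding enzymes and of the TNF-α, interferon-γ and NF-κB pathways, Tnfrsf1a was higher in the male CLP group (0.89, adjusted p = 0.00224), and among those lower in the female CLP group was Irf1 (-2.24, adjusted p = 0.00216). In the other sex Tnfrsf1a had 0.46 (adjusted p = 0.197) and Irf1 -1.15 (adjusted p = 0.127). As given above, the difference of the CLP effect between the sexes passed for 0% of all probes. In CLP plus landiolol vs CLP, 0 genes of these 4 lists passed in either sex.

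Markers of the cells that carry or meet these molecules were taken from further lists, whose counts stand against the same shares of all probes. Of 21 endothelial markers kept, 0 were higher and 2 lower in the male CLP group (Emcn and Mcam), 0 higher and 1 lower in the female CLP group (Emcn, -1.34, adjusted p = 0.00165), and 3 higher in female CLP plus landiolol vs sham (Kdr, Ramp2 and Ptprb). The groups of this last comparison lay in different rows of the slides, and the calls of the markers were not examined with the row in the fit. The summed level of the endothelial list ran from 16.25 to 16.76 in the male sham, from 16.38 to 16.97 in the male CLP and from 16.56 to 17.10 in the male CLP plus landiolol group, and from 15.84 to 16.59, 16.08 to 16.80 and 16.42 to 16.73 in females. Of 7 monocyte and macrophage markers 3 were higher in the CLP group in each sex (Cd68, Adgre1 and Lyz2), and their summed level did not overlap between sham and CLP, with at most 14.00 and at least 14.94 in males and 14.48 and 14.98 in females. Of single probes, 12.3% in males and 8.32% in females did not overlap in that comparison, which is no background for a sum. Neutrophil markers were mostly dim, with 2 of 8 kept in males and 3 in females, and 2 and 1 of them higher in the CLP group, while Mmp8 was well above background on 0 arrays. The filter also kept probes that were bright in only 1 group. S100a8, among those called in both sexes, was well above background on 11 male and 12 female arrays. Its calls are therefore not independent of the filter. Of 6 fibroblast markers 1 was higher and 3 lower in the male CLP group, of 7 mural markers 1 was lower in the female CLP group, and of the cardiomyocyte, platelet, lymphocyte and epithelial lists 0 passed in these comparisons. Only 3 of 8 lymphocyte markers and 2 of 11 epithelial or mesothelial markers were kept in each sex, so most of these 2 lists could not be judged. The part of these cells in the levels of the 10 genes was not tested.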

How the data were processed

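Left ventricular RNA of 32 rats was hybridised to 1-colour Agilent arrays. The authors deposited scanner files (Agilent Feature Extraction 10.5 per the labels) with an intensity that the software had background-subtracted and detrended within the array. They also deposited quantile-normalised log2 values, used here as an alternative, with any offset unknown. Here, control spots and outlier spots were left out, log2 of the processed intensity was averaged over replicate spots, and quantile normalisation was done separately for males and females. A probe was kept if, in 1 group or more, 80% of the arrays had it well above background. Tests were made with limma 3.58.1 in R 4.3.3 on the 16 arrays of a sex, with Benjamini-Hochberg adjustment over all kept probes and the FDR levels of the study, namely 1% for the effect of CLP and 5% for that of landiolol after CLP. The levels for CLP plus landiolol vs sham (1%) and for differences between the sexes (5%) were chosen here. SAM with 100 permutations, other scalings, filters, fits and each array left out were alternatives. The brightest kept probe of a gene was reported, and in each comparison at most 4 called genes of a list were named. The genes, lists and tests were chosen with earlier results of these data known. Samples were grouped by the labels. Between 34920 and 43155 of 58717 non-control spots were well above background on an array and 0 were saturated, and the number of arrays limits the precision. One female slide was extracted with another version of the scanner protocol. Scripts were tested on simulated data. Motifs were searched in RefSeq promoters of build GRCr8. One gene of the lists is not reported here.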

Additional observations from a re-analysis of the deposited data

Results flagged for a closer look

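Over 60 combinations of gene and group, 2 arrays stood apart from the rest of their group by Dixon's test at the 95% level, and chance gives about 1 in 20. Replicate 3 of the male CLP group was far below the others for Vcam1, with 11.69 against 13.57 for the next array and 14.14 for the highest, a gap of 0.768 of the whole range (critical value 0.71). The same array was the lowest of its group for Sele, Selp and Icam1, and, with the codes in the titles read as dates, it was the one array of slide 1 that fell among those of slide 2. Without it CLP vs sham in males was -0.04 for Vcam1, 0.33 for Sele, 0.96 for Selp and 0.02 for Icam1, and CLP plus landiolol vs CLP was 0.33 for Vcam1 and -0.24 for Sele, with 0 of these passing. Replicate 5 of the female CLP group was far above the others for Pecam1, with 14.40 against 13.45 for the next array, a gap of 0.791 of the range (critical value 0.71). Without it CLP vs sham for Pecam1 in females was 0.28 (adjusted p = 0.475, limma, within 0.101 to 0.668 over its alternatives). The cause of either was not tested.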

How the results depend on the processing

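The count of genes passing was 0 in all 24 alternatives for CLP vs sham in each sex, in all 25 for CLP plus landiolol vs CLP in females and CLP plus landiolol vs sham in males, and in all 37 for each difference between the sexes. For landiolol in males (CLP plus landiolol vs CLP) it was 1 (Cdh5) with array weights and 0 to 1 when single arrays were left out. For CLP plus landiolol vs sham in females it was 1 (Vcam1) with scaling to the 75th percentile, normexp, array weights, the authors' table, SAM and the FDR of 5%, and 0 to 1 without single arrays. Averaged over the sexes it was 1 for CLP vs sham at an FDR of 5% (Pecam1), and 1 for landiolol (Cdh5) with the slide as a block and with array weights, and 0 to 1 without single arrays. Signs that turned belonged to differences that did not pass. With array weights they were those of male CLP vs sham for Sele (0.16), Icam1 (0.07) and Ocln (-0.03), of male CLP plus landiolol vs CLP for Icam2 (0.02), Pecam1 (-0.03) and Cldn5 (0.35), and of female CLP vs sham for Selp (0.01) and Icam2 (-0.07). With the slide's row added to the fit they were those of female CLP vs sham for Icam2 (-0.01) and Esam (0.04) and of female CLP plus landiolol vs CLP for Pecam1 (-0.26). With the order of the title codes as a term (a setting added once the data had been seen) they were those of male CLP plus landiolol vs CLP for Sele (-0.22), Selp (-0.19), Icam1 (-0.19) and Pecam1 (-0.05) and of female CLP vs sham for Selp (0.03) and Esam (0.02). Leaving out single arrays gave ranges across 0 for male CLP vs sham of Sele (-0.50 to 0.33), Icam1 (-0.61 to 0.02), Icam2 (-0.17 to 0.03) and Ocln (-0.16 to 0.29), for male CLP plus landiolol vs CLP of Sele (-0.24 to 0.48), Selp (-0.03 to 0.48), Icam1 (-0.18 to 0.40), Icam2 (-0.19 to 0.01), Pecam1 (-0.09 to 0.19) and Cldn5 (-0.22 to 0.22), for female CLP vs sham of Selp (-0.37 to 0.16), Icam2 (-0.06 to 0.15) and Esam (-0.21 to 0.09), and for female CLP plus landiolol vs CLP of Icam2 (-0.03 to 0.22) and Pecam1 (-0.03 to 0.29). No paired analysis was made, because each array came from a different rat and the labels name no pairs. Of the codes in the sample titles, 0 are shared by rats of the same sex. The cause of these changes was not tested.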
